A study of Mus musculus with 8 samples.

Results

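The genes described here encode p97 and the ubiquitin enzymes and adaptors that work with it in endoplasmic reticulum (ER)-associated degradation (ERAD), outside the core of the SEL1L-HRD1 complex. They were chosen by name and role, by a rule that uses no measured value, and are *Vcp*, *Ufd1*, *Nploc4*, *Faf2*, *Ubxn4*, *Ube2g2*, *Ube2j1*, *Rnf5* and *Aup1*. These are 9 of the 16538 genes in the table, and all 9 reached the mean of 1 RPKM that was required for testing, as did 6512 genes in all. RNA was sequenced from thymocytes sorted at the DN3 stage, the third stage that lacks CD4 and CD8 (CD44- CD25+), from C57BL/6 mice aged 6 weeks, to learn how loss of SEL1L acts on these cells. There were 4 libraries labelled Sel1l-f/f (Ctrl), with both *Sel1l* alleles floxed and no Cre, and 4 libraries labelled Sel1l-f/f hCD2cre+ (*Sel1l* CKO), with the same floxed alleles and the h*CD2*-iCre transgene. This transgene is active from the earliest thymic progenitors onward, so that the deletion precedes the DN3 stage. The labels do not state whether the 4 libraries of a genotype came from separate mice. The authors give n = 4 for these data and in general count n as independent biological replicates. The p values set a difference against the spread between these libraries.

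ERAD removes misfolded proteins from the ER. An E2 enzyme passes ubiquitin to the substrate with the help of a membrane E3 ligase, and the hexameric ATPase p97 (also called VCP) then pulls the ubiquitinated protein into the cytosol for the proteasome. Membrane proteins of the UBX family hold p97 at the ER, and the UFD1-NPL4 heterodimer reads the ubiquitin chain. HRD1 with its adaptor SEL1L is the best conserved of the ERAD ligases, and other ligases such as RNF5 and MARCHF6 serve other substrates. The division between branches is not strict, since UBE2J1, UBE2G2 and AUP1 are also known to work with HRD1.

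Reads counted on genes were between 32900250 and 50401356 per library. RPKM divides the reads on a gene by library size and gene length. For 75.3% of the genes with a value, the length in the table fitted the whole span of the gene with introns. Values of a single gene are therefore compared between libraries in RPKM, and levels are compared between genes only after conversion to exon length. For *Sel1l* itself the Ctrl libraries held 1.57 to 1.83 RPKM and the *Sel1l* CKO libraries, all of them lower, 0.876 to 1.32 RPKM (log2 fold change -0.59, SE 0.13, limma adjusted p = 0.0327). With 1 library left out, limma adjusted p for *Sel1l* was 0.0199 to 0.0981, and it passed only without *Sel1l* CKO replicate 3 or 4. This RPKM counts reads over the whole gene, deleted and remaining exons alike. Replicates 3 and 4 of *Sel1l* CKO lay apart from replicates 1 and 2 on the second principal component (22.1% of the variance). On the first (48.4%) replicates 3 and 4 were nearer to Ctrl, at 7.13 and 6.45 against 17.49 and 22.39 for replicates 1 and 2. The Ctrl libraries were at -21.52 to -7.83 on it. The log2 fold change of *Sel1l* was -0.89 in replicates 1 and 2 alone and -0.30 in replicates 3 and 4 alone, and the same pair of values is given below for other genes. The identity of the sort was checked on 14 DN3 and T-lineage genes, of which 0 passed the limma test between genotypes (6 at an unadjusted p under 0.05, 0 by limma voom). Over all tested genes, 1356 of 6512 were under that unadjusted p. All 6 were lower in *Sel1l* CKO, with log2 fold changes from -0.28 for *Cd3g* to -1.05 for *Hes1*. The others were *Ptcra*, *Bcl11b*, *Cd3e* and *Dntt*. Of the 14, only *Il2ra*, *Cd24a* and *Tcf7* had log2 fold changes above 0. The summed level of the 14 was 629 to 814 RPKM in Ctrl and 574 to 662 RPKM in *Sel1l* CKO. The sort left out cells that stained for CD11b, CD11c, Gr-1, Ter119, CD49b or B220. Of 5 thymic epithelial and stromal markers, *Epcam* fell (3.04 to 4.87 RPKM in Ctrl and 1.79 to 2.23 RPKM in *Sel1l* CKO, log2 fold change -0.95, limma adjusted p = 0.00273) and the other 4 were at 0.128 RPKM or less in every library. Their sum of 3.14 to 4.96 RPKM in Ctrl and 1.95 to 2.30 RPKM in *Sel1l* CKO was thus nearly all *Epcam*. The 7 myeloid and dendritic markers summed to 16.8 to 19.7 RPKM in Ctrl and 12.5 to 15.6 RPKM in *Sel1l* CKO, of which *Cst3* made up 14.4 to 17.1 and 11.7 to 13.9 RPKM and *Lyz2* most of the rest, and the other 5 were at 0.315 RPKM or less. The part of such cells in the results was not tested, and in sorted bulk RNA fewer cells of a type cannot be told apart from less RNA per cell.

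The data showed a higher level of *Vcp* and of the E2 gene *Ube2g2* in *Sel1l* CKO DN3 thymocytes, and of no other gene of this set by the test across all genes. *Vcp* was 1.35-fold and *Ube2g2* 1.28-fold the Ctrl mean. Of the 9 genes, 2 rose, 0 fell and 7 did not pass an adjusted p of 0.05 in limma's moderated test on log2(RPKM + 0.1), whereas 5.28% of all tested genes passed in either direction, 4.27% as higher and 1.01% as lower. At an unadjusted limma p under 0.05, 3 of the 9 passed, with *Ube2j1* added, as did 1356 of the 6512 tested genes. Limma voom on recovered reads called the same 2 higher and 0 lower. Of the tested genes it covered 6399 and called 260 higher and 78 lower. In 4 of the 9, namely *Vcp*, *Nploc4*, *Ube2g2* and *Ube2j1*, every *Sel1l* CKO library was above every Ctrl library. That held for 9.15% of all tested genes, and the opposite order, which none of the 9 showed, for 5.59%. The median log2 fold change was 0.11 over the 9 genes, with a range from -0.09 to 0.43, and 0.01 over all tested genes.

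**Figure D1:**
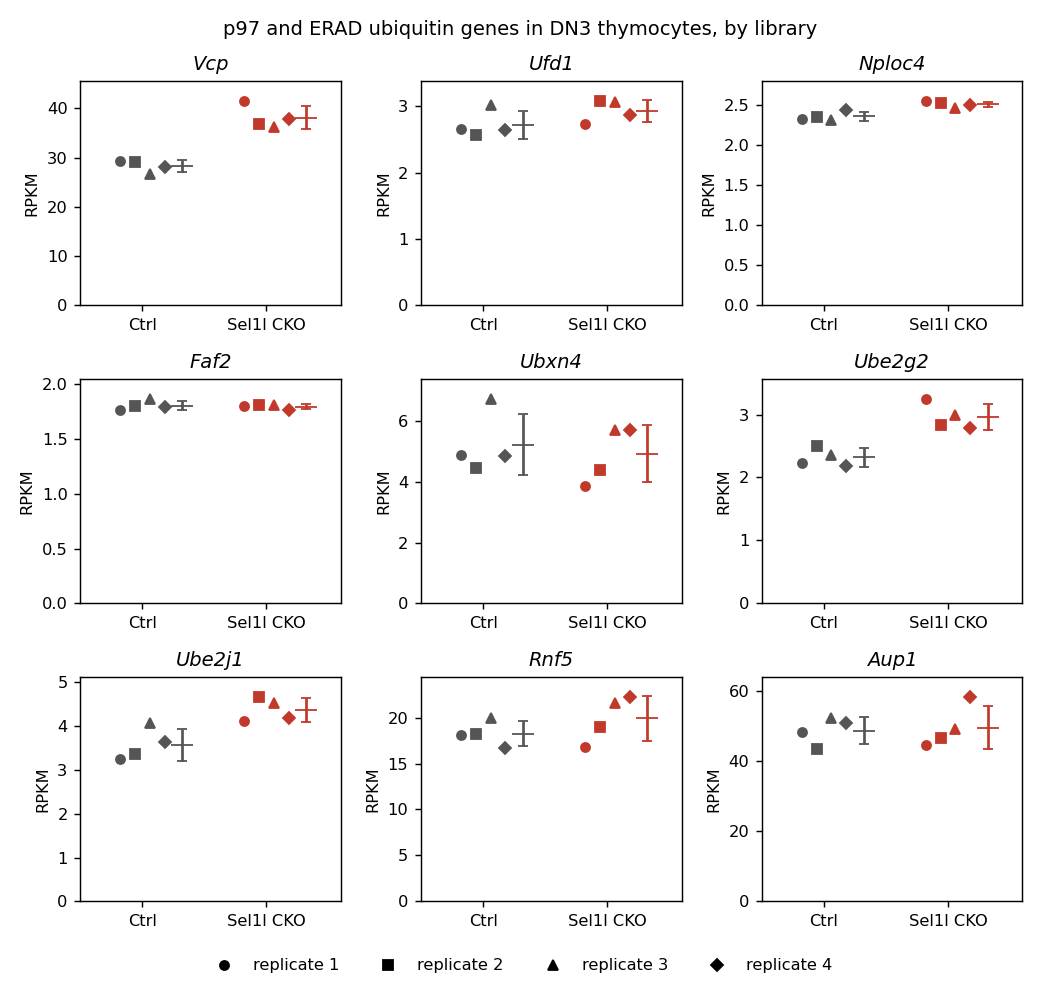
RPKM (vertical axis, from 0, scaled to each gene) of the 9 genes in the 4 Ctrl and 4 *Sel1l* CKO libraries. Symbols mark the replicate, and the bar and whiskers give the mean and SD of 4 libraries; *Vcp*, *Nploc4*, *Ube2g2* and *Ube2j1* show no overlap between genotypes, and the *Nploc4* groups differ by 1.06-fold.

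The promoters are shown for *Vcp* and *Ube2j1*, because among the 9 genes only these 2 held an 8-base match to TGACGTGG, the core bound by the unfolded protein response factors ATF6 and XBP1, within the RefSeq windows that matched. Windows of 300 bases, from 250 before to 50 after the start, were found for 6 of the 9 genes (*Vcp*, *Ufd1*, *Nploc4*, *Faf2*, *Ubxn4* and *Ube2j1*) in the RefSeq annotation of GRCm38.p6. The 250 bases before the start are printed 5′ to 3′ on the strand of the gene. Capitals mark each match to TGACGTGG and to its inner CCACG on either strand. The *Vcp* sequence lies at chr4:43000508-43000757 on the minus strand and the *Ube2j1* sequence at chr4:33031130-33031379 on the plus strand.
Vcp: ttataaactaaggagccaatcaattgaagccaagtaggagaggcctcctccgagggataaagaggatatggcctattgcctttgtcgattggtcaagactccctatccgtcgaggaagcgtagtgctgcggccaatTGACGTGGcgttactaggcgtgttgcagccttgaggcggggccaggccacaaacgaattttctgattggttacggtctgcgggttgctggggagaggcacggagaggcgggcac
Ube2j1: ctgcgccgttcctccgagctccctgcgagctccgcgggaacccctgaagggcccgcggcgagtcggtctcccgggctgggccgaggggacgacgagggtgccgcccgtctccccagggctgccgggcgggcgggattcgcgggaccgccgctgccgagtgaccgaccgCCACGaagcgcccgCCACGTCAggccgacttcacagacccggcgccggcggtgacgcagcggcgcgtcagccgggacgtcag
In *Vcp* the match read in the direction of the gene and lay from -114 to -107 relative to the start. In *Ube2j1* it was on the opposite strand, from -68 to -61. A match to TGACGTGG was present in 222 of 32851 such windows, or 0.676%. CCACG, which overlaps it, was present in 32.8% of the windows and in the same 2 of the 6, and *Ube2j1* held a further CCACG from -82 to -78.

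The full ER stress element, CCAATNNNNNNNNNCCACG, was found in 0 of the 6 windows and in 0.119% of all windows. Its shorter form ATTGGNCCACG was found in 0 of the 6 and in 0.0365% of all. TGATGNAA, an ATF4-type element, was present in *Faf2* alone, against 3.97% of all windows. TGGGAA, the core bound by the Notch effector RBP-J, was present in *Ufd1* and *Ubxn4*, against 25.6%, and the heat shock element GAANNTTC, which reads the same on both strands, in *Vcp* and *Nploc4*, against 7.86%. All motifs were searched on both strands. Such a match is a run of letters in the window and does not show a bound factor.

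*Vcp* (ENSMUSG00000028452.7, chromosome 4 of GRCm38, 42979963 to 43000507, minus strand) encodes p97, the ATPase on which ERAD depends for extraction of its substrates. Listed here and below in the order of replicates 1 to 4, *Vcp* had 29.4, 29.1, 26.6 and 28.0 RPKM in Ctrl and 41.4, 36.8, 36.2 and 37.9 RPKM in *Sel1l* CKO. The groups were well apart, since the lowest *Sel1l* CKO library exceeded the highest Ctrl library, and *Sel1l* CKO replicate 1 was the highest of all. The mean rose from 28.3 ± 1.31 to 38.1 ± 2.29 RPKM (SD, n = 4), a log2 fold change of 0.43 (SE 0.07, unadjusted 95% interval 0.28 to 0.58, limma adjusted p = 0.00517). An exact permutation test gave p = 0.0286, the smallest that the 70 assignments of 8 libraries allow. The log2 fold change was 0.41 in replicates 1 and 2 alone and 0.44 in replicates 3 and 4 alone. By limma p, *Vcp* ranked 129 among the 6512 tested genes. The value rested on 19201 to 28603 recovered reads per Ctrl library and 24500 to 38153 per *Sel1l* CKO library. *Vcp* overlaps 1700022I11Rik on the opposite strand over 3678 bases, but that gene held at most 7 reads in any library. A processed pseudogene of *Vcp*, *Vcp-rs* on chromosome X, is not in the table, and reads that fit both could have been lost or split. *Vcp* passed the test in each of 22 alternative analyses, with adjusted p values by limma of 0.00123 to 0.0442.

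UFD1 and NPL4, the latter encoded by *Nploc4*, form the heterodimer that recruits p97 to ubiquitinated substrates. *Ufd1* (ENSMUSG00000005262.13, chromosome 16, 18811779 to 18835261, plus strand) was at 2.65, 2.56, 3.02 and 2.64 RPKM in Ctrl and at 2.73, 3.07, 3.06 and 2.86 RPKM in *Sel1l* CKO. Ctrl replicate 3 lay among the *Sel1l* CKO libraries, and the groups overlapped. The difference was a log2 fold change of 0.11 (SE 0.07, interval -0.06 to 0.27, limma adjusted p = 0.448). *Nploc4* (ENSMUSG00000039703.15, chromosome 11, 120380370 to 120437708, minus strand) had 2.33, 2.36, 2.32 and 2.44 RPKM in Ctrl and 2.55, 2.53, 2.47 and 2.51 RPKM in *Sel1l* CKO. Its libraries were tightly grouped and did not overlap, with an exact permutation p of 0.0286, but the means differed by only 1.06-fold. The log2 fold change of *Nploc4* was 0.09 (SE 0.06, interval -0.04 to 0.21, limma adjusted p = 0.415). *Ufd1* overlaps *Cdc45*, a replication gene, on the opposite strand over 209 bases, and *Cdc45* was at 2.61 ± 0.277 RPKM in Ctrl and 3.19 ± 0.583 RPKM in *Sel1l* CKO (SD, n = 4).

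*Faf2* and *Ubxn4* encode UBX proteins of the ER membrane that bind p97. *Faf2* (ENSMUSG00000025873.16, chromosome 13, 54621784 to 54664063, plus strand) was at 1.76, 1.80, 1.86 and 1.79 RPKM in Ctrl and at 1.80, 1.81, 1.81 and 1.76 RPKM in *Sel1l* CKO. The 2 groups covered nearly the same values. It had a log2 fold change of -0.01 (SE 0.06, interval -0.14 to 0.13, limma adjusted p = 0.963), so that a change as large as that of *Vcp* lay outside the interval. *Ubxn4* (ENSMUSG00000026353.9, chromosome 1, 128243964 to 128279378, plus strand) was at 4.89, 4.45, 6.70 and 4.83 RPKM in Ctrl and at 3.85, 4.39, 5.69 and 5.71 RPKM in *Sel1l* CKO. It had the widest spread of the 9 genes, with a coefficient of variation of 19.3% in Ctrl and 19.2% in *Sel1l* CKO, and the groups overlapped. Ctrl replicate 3 was the highest library and *Sel1l* CKO replicate 1 the lowest. The log2 fold change of *Ubxn4* was -0.09 (SE 0.16, interval -0.45 to 0.28, limma adjusted p = 0.788). It was -0.18 in replicates 1 and 2 alone and 0.00 in replicates 3 and 4 alone.

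**Figure D2:**
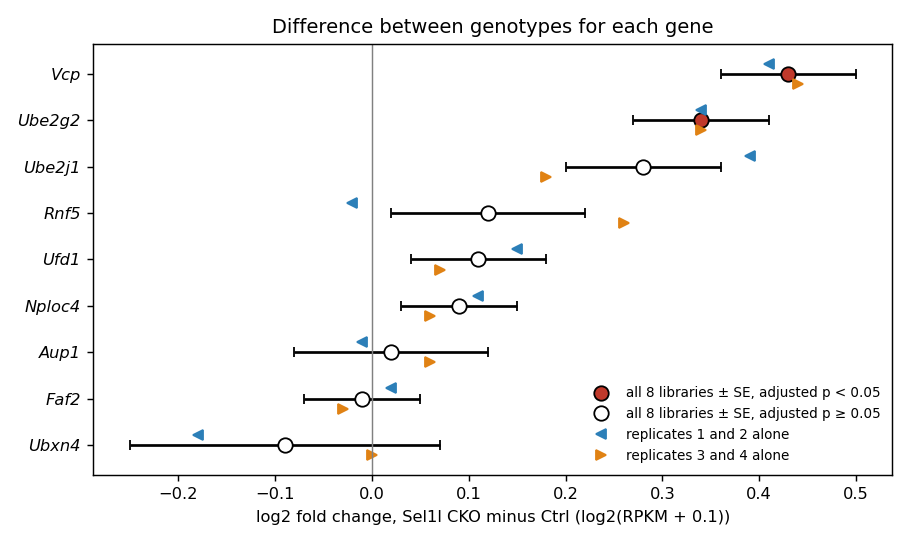
Log2 fold change of each gene on the log2(RPKM + 0.1) scale (horizontal axis, *Sel1l* CKO minus Ctrl), with circles and bars for all 8 libraries ± SE and triangles for replicates 1 and 2 alone and 3 and 4 alone. *Vcp* and *Ube2g2*, filled, passed the limma test and kept nearly the same value in both subsets of the libraries, while *Ube2j1* was at 0.39 and 0.18 and *Rnf5* at -0.02 and 0.26.

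The E2 enzymes carry the ubiquitin that the ligases attach. UBE2G2 is a soluble E2 that is recruited to the ER membrane and builds chains linked through lysine 48. *Ube2g2* (ENSMUSG00000009293.17, chromosome 10, 77622275 to 77645993, plus strand) was at 2.23, 2.5, 2.36 and 2.18 RPKM in Ctrl and at 3.24, 2.83, 3.0 and 2.79 RPKM in *Sel1l* CKO. All *Sel1l* CKO libraries were above all Ctrl libraries, with *Sel1l* CKO replicate 1 the highest, as for *Vcp*. Its mean rose from 2.32 ± 0.142 to 2.97 ± 0.204 RPKM (SD, n = 4), a log2 fold change of 0.34 (SE 0.07, interval 0.17 to 0.51, limma adjusted p = 0.0303). The same log2 fold change, 0.34, was found in replicates 1 and 2 alone and in replicates 3 and 4 alone. The call was less secure than that of *Vcp*, since it held in 13 of 21 alternative analyses. When 1 library was left out, limma adjusted p ranged from 0.041 to 0.0954, and the call was lost without Ctrl replicate 1, 3 or 4 or *Sel1l* CKO replicate 1 or 3. The gene model Gm49325, not in the table, overlaps *Ube2g2* on the same strand over 19269 bases, and how reads shared by the 2 were counted is not stated.

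UBE2J1 is anchored in the ER membrane by its tail and is the E2 most closely tied to HRD1. *Ube2j1* (ENSMUSG00000028277.13, chromosome 4, 33031416 to 33052363, plus strand) was at 3.25, 3.37, 4.07 and 3.63 RPKM in Ctrl and at 4.11, 4.66, 4.53 and 4.18 RPKM in *Sel1l* CKO. The groups did not overlap, but Ctrl replicate 3 came close to *Sel1l* CKO replicate 1. The means were 3.58 ± 0.364 and 4.37 ± 0.266 RPKM (SD, n = 4), or 1.22-fold. This corresponded to a log2 fold change of 0.28 (SE 0.08, interval 0.09 to 0.47), and it did not pass the test across all genes (limma adjusted p = 0.098), although an exact permutation test of this gene alone gave p = 0.0286. It was 0.39 in replicates 1 and 2 alone and 0.18 in replicates 3 and 4 alone. *Ube2j1* passed in 2 of 21 alternative analyses, those with limma array weights (adjusted p = 0.0208) and without Ctrl replicate 3 (log2 fold change 0.35, limma adjusted p = 0.0488).

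RNF5 is a small E3 ligase of the ER membrane that acts on misfolded membrane proteins. *Rnf5* (ENSMUSG00000015478.13, chromosome 17, 34601091 to 34603690, minus strand) had 18.1, 18.2, 20 and 16.7 RPKM in Ctrl and 16.8, 19.0, 21.6 and 22.2 RPKM in *Sel1l* CKO. *Sel1l* CKO replicates 3 and 4 were above all Ctrl libraries, and the other 2 were among them. Its log2 fold change was 0.12 (SE 0.10, interval -0.11 to 0.34, limma adjusted p = 0.523), with -0.02 in replicates 1 and 2 alone and 0.26 in replicates 3 and 4 alone. An antisense gene, Gm20463, covers 426 bases of *Rnf5*, and whether the counting used the strand is not stated.

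AUP1 is a lipid droplet and ER protein that holds UBE2G2 at the membrane. *Aup1* (ENSMUSG00000068328.9, chromosome 6, 83054521 to 83057808, plus strand) was at 48.2, 43.5, 52.1 and 50.8 RPKM in Ctrl and at 44.4, 46.4, 49.1 and 58.1 RPKM in *Sel1l* CKO. Only *Sel1l* CKO replicate 4 was above the Ctrl range, and the groups overlapped. Between genotypes the log2 fold change was 0.02 (SE 0.10, interval -0.20 to 0.24, limma adjusted p = 0.924). The estimate of 0.34 for *Ube2g2*, the E2 that AUP1 recruits, lay above this interval. The intervals of both genes overlapped, however, and the difference between them was not tested. *Aup1* overlaps *Htra2*, a mitochondrial protease gene, on the opposite strand over 753 bases, and *Htra2* was at 9.98 ± 0.687 RPKM in Ctrl and 10.4 ± 0.76 RPKM in *Sel1l* CKO (SD, n = 4).

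To order the 9 genes by level, RPKM was recomputed from the recovered reads on exon length, the union of all annotated exons of a gene. For *Aup1* this union was 3276 bases against a span of 3288, so its introns were hardly removed. The order of the genes therefore depends on the annotated exons. The reads of *Aup1* and *Faf2* were recovered with lengths solved from the values (3028 and 42285 bases), not with the span. Each is the smallest length searched that gave whole reads, so the levels of these genes also depend on it. *Vcp* stood far above the others, at 120 ± 5.55 in Ctrl and 161 ± 9.69 in *Sel1l* CKO (SD, n = 4). *Aup1* followed in Ctrl at 45.0 ± 3.48, *Ubxn4* at 39.6 ± 7.65, *Rnf5* at 32.0 ± 2.36 and *Nploc4* at 28.4 ± 0.672, and each of these overlapped its neighbour in this order over the 4 Ctrl libraries. *Ube2g2* at 22.6 ± 1.39 and *Ube2j1* at 21.2 ± 2.16 also overlapped each other, but lay below *Nploc4* in every Ctrl library. *Ufd1* at 14.7 ± 1.12 and *Faf2* at 9.37 ± 0.211 were the lowest, and did not overlap each other or the E2 genes. In *Sel1l* CKO the 2 E2 genes were at 28.9 ± 1.99 and 25.9 ± 1.58, near *Nploc4* at 30.2 ± 0.429. On this scale the level of *Nploc4* was above that of *Ufd1*, its partner in the heterodimer, in every library.

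**Figure D3:**
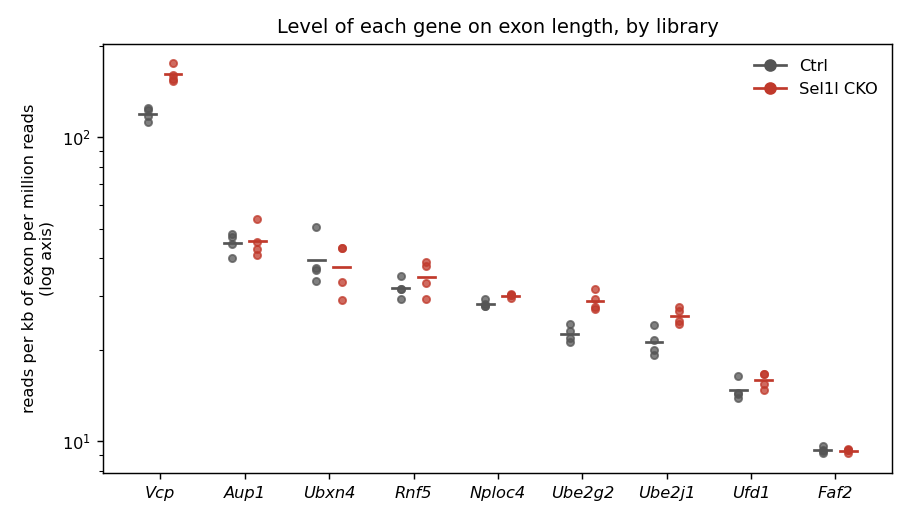
Level of the 9 genes as RPKM on exon length (vertical axis, log scale) in each Ctrl and *Sel1l* CKO library, with bars at the group means. *Vcp* lies above all other genes in every library, at 120 in Ctrl and 161 in *Sel1l* CKO, and *Faf2* is the lowest at 9.37 and 9.33.

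The ratio of *Vcp* to each of the other 8 genes was compared within libraries, which removes library size. In RPKM on exon length the ratio of *Vcp* to *Ufd1* was 8.15 ± 0.917 in Ctrl and 10.2 ± 1.19 in *Sel1l* CKO. The ratio of *Vcp* to *Nploc4* was 4.22 ± 0.233 and 5.33 ± 0.265 (SD, n = 4). The log2 ratio of *Vcp* to *Faf2* was higher by 0.44 (SE 0.07) in *Sel1l* CKO, to *Nploc4* by 0.34 (SE 0.05), to *Ufd1* by 0.32 (SE 0.12) and to *Rnf5* by 0.31 (SE 0.15). In these 4 the groups did not overlap, with an exact permutation p of 0.0286 each and 0.0572 after Benjamini-Hochberg adjustment over the 8 ratios. For *Aup1* (0.41, SE 0.14) and *Ubxn4* (0.52, SE 0.24) the groups overlapped (exact permutation p = 0.0571, adjusted 0.0761). The ratio to the E2 genes moved least, by 0.07 (SE 0.06) for *Ube2g2*, with an exact permutation p of 0.286, and by 0.14 (SE 0.13) for *Ube2j1*, with an exact permutation p of 0.343. None of the 8 passed 0.05 after adjustment, for which at least 5 ratios at the smallest possible p are needed, and all 8 share the *Vcp* values. Their mean differences follow from the fold changes of the single genes given above, of which that of *Vcp* was the largest. The ratios are therefore no separate evidence for its rise.

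**Figure D4:**
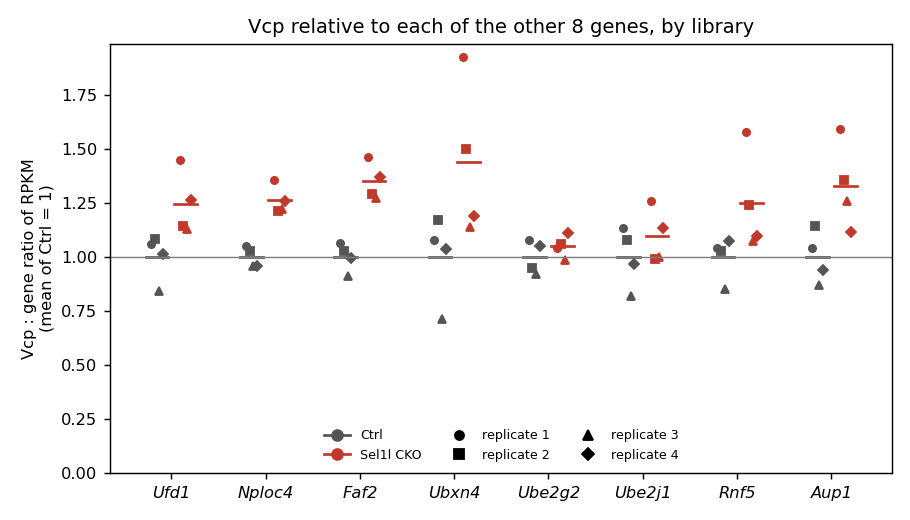
Ratio of *Vcp* to each other gene in RPKM (vertical axis, from 0), divided by its Ctrl mean, in the 4 Ctrl and 4 *Sel1l* CKO libraries, with symbols for the replicate and bars at the group means. The ratios to *Ufd1*, *Nploc4*, *Faf2* and *Rnf5* are higher in every *Sel1l* CKO library, whereas those to *Ube2g2* and *Ube2j1* overlap between genotypes.

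Ctrl replicate 3 was the highest Ctrl library for *Ufd1*, *Faf2*, *Ubxn4*, *Ube2j1*, *Rnf5* and *Aup1*, and the lowest for *Vcp* and *Nploc4*. The genes whose log2 values followed *Vcp* most closely over the 8 libraries were *Reep5* (Pearson r = 0.989), *Nans* (0.986), *Tbcb* (0.984), *Dcps* (0.983) and *Bcat2* (0.982). These 8 points include the difference between genotypes, and all 5 genes had log2 fold changes above 0, from 0.39 (SE 0.08) for *Dcps* to 1.24 (SE 0.12) for *Bcat2*. For *Ube2g2* the closest were *Rnf7* (0.968), *Kdelr2* (0.967), *Akr1a1* (0.967), *C2cd2l* (0.96) and *Ubl4a* (0.958). Of these, *Kdelr2*, a receptor that returns ER proteins from the Golgi, rose by a log2 fold change of 0.58 (SE 0.08, limma adjusted p = 0.00167) and *C2cd2l* by 0.38 (SE 0.07, adjusted p = 0.0126). The correlations describe these libraries and were not tested.

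The rest of the ERAD ubiquitin pathway was read from a list of 76 further genes outside the HRD1 branch, of which 51 were tested. In the limma test only *Selenos* rose and only *Yod1* fell, and 49 did not pass, with a median log2 fold change of -0.03. Both are p97 cofactors, among which 24 of 37 genes were tested and 22 did not pass (median -0.05). The filter of 1 RPKM uses the gene span, so it also left out long genes with many reads. *Rnf130*, for example, held 2773 to 3844 reads per Ctrl library. Limma voom on recovered reads, which tested 72 of the 76, called 2 higher and 3 lower. SELENOS is a selenoprotein of the ER membrane that draws p97 to Derlins. *Selenos* was at 3.22, 3.02, 4.11 and 2.91 RPKM in Ctrl and at 6.52, 7.24, 10.1 and 10.2 RPKM in *Sel1l* CKO. Every *Sel1l* CKO library lay above the Ctrl range, and replicates 3 and 4 were the highest. Its log2 fold change was 1.32 (SE 0.17, limma adjusted p = 0.00143), 2.57-fold in mean RPKM, and held whichever library was left out. It was 1.11 in replicates 1 and 2 alone and 1.53 in replicates 3 and 4 alone. YOD1 is a deubiquitinase that trims substrates bound to p97. *Yod1* was at 2.47, 2.35, 2.68 and 2.23 RPKM in Ctrl and at 1.27, 1.24, 1.91 and 1.89 RPKM in *Sel1l* CKO, lower in every library. Its log2 fold change was -0.62 (SE 0.15, limma adjusted p = 0.0485), and the call held only without *Sel1l* CKO replicate 3 or 4 among the 8 fits that left out 1 library (limma adjusted p = 0.0328 to 0.131). *Yod1* had -0.89 in replicates 1 and 2 alone and -0.35 in replicates 3 and 4 alone.

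**Figure D5:**
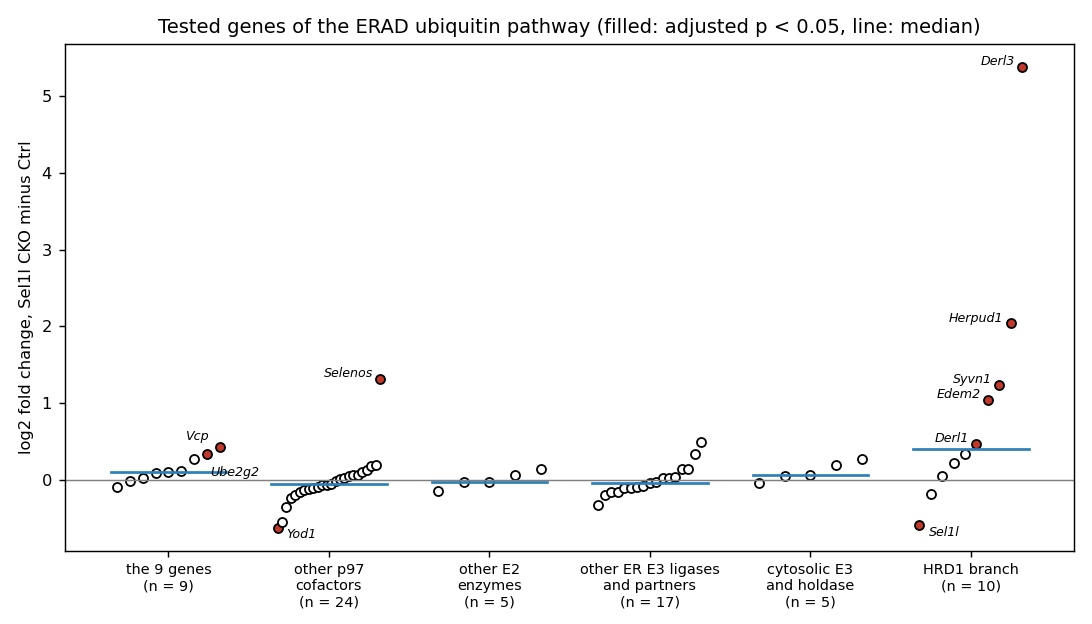
Log2 fold change (vertical axis, *Sel1l* CKO minus Ctrl) of every tested gene of the 9 described here and of the further lists, 1 point per gene, sorted within a list. Filled points passed the limma test and lines give the median; outside the HRD1 branch, only *Vcp*, *Ube2g2* and *Selenos* are filled above 0 and only *Yod1* below.

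Of 5 tested other E2 genes, 0 passed the limma test (median -0.03), with 0 at an unadjusted p under 0.05 and 0 by limma voom. *Ube2j2*, a paralog of *Ube2j1*, was at 5.32 ± 0.0717 RPKM in Ctrl and 5.89 ± 0.578 RPKM in *Sel1l* CKO (SD, n = 4), with a log2 fold change of 0.14 (SE 0.08, limma adjusted p = 0.339). Among 17 tested ER membrane E3 ligases and their partners 0 passed in limma (median -0.04, range -0.32 to 0.50), with 3 at an unadjusted p under 0.05. Of 5 cytosolic E3 and holdase genes 0 passed in limma (median 0.06), with 2 at an unadjusted p under 0.05 and 0 by limma voom. Over all tested genes, 1356 of 6512 were under that unadjusted limma p. *Marchf6*, a ligase of sterol enzymes, was at 0.981 ± 0.0278 RPKM in Ctrl and 1.09 ± 0.088 RPKM in *Sel1l* CKO (SD, n = 4), a log2 fold change of 0.14 (SE 0.08, limma adjusted p = 0.361). *Rnf139*, which encodes the ligase TRC8, had a log2 fold change of -0.15 (SE 0.09, limma adjusted p = 0.412).

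*Rnf185*, a close relative of *Rnf5*, lay below the mean RPKM of 1 and was not among the tested genes. It was at 0.504, 0.502, 0.516 and 0.501 RPKM in Ctrl and at 0.644, 0.624, 0.823 and 0.871 RPKM in *Sel1l* CKO. The groups did not overlap (exact permutation p = 0.0286), whereas those of *Rnf5* did. With genes kept from a mean RPKM of 0.1 and a pseudocount of 0.01, the log2 fold change of *Rnf185* was 0.53 (SE 0.12, limma adjusted p = 0.0508). In that analysis 26 ER membrane E3 ligases and partners were tested, and 2 fell, *Rnf130* (log2 fold change -0.58, SE 0.12, limma adjusted p = 0.0323) and *Rnf19a* (log2 fold change -0.36, SE 0.08, limma adjusted p = 0.0424). Over all 10177 genes tested in it, 301 were higher and 91 lower. Limma voom on recovered reads, which tested 25 of the 26, called *Rnf185* higher (log2 fold change 0.51, adjusted p = 0.0478) and the same 2 genes lower. Of all 11592 genes that limma voom tested, it called 337 higher and 160 lower.

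The HRD1 branch is given for reference. Of its 10 tested genes 5 rose, *Sel1l* fell, and *Derl2*, *Os9*, *Edem1* and *Fam8a1* did not pass, with a median log2 fold change of 0.41. *Herpud1*, a scaffold of the complex, rose from 7.18 ± 1.16 to 29.6 ± 2.31 RPKM (log2 fold change 2.04, SE 0.12, limma adjusted p = 1.22e-05). *Syvn1*, which encodes HRD1 itself, rose from 10.9 ± 0.449 to 26.4 ± 5.74 RPKM (1.24, SE 0.15, limma adjusted p = 0.000972). Among the Derlins, membrane proteins of the exit channel, *Derl3* had a log2 fold change of 5.38 (SE 0.37, limma adjusted p = 3.42e-05) from 0.0919 ± 0.0831 to 7.84 ± 3.18 RPKM. *Derl3* held 1 to 18 reads per Ctrl library, so its fold change depends on the pseudocount, and it was 6.66 with a pseudocount of 0.01 and 6.87 by limma voom. It reached the mean of 1 RPKM only through its *Sel1l* CKO libraries. With genes kept from a mean RPKM of 0.1 and a pseudocount of 0.01, 13 genes of the branch were tested. The same 5 rose in limma, and the median log2 fold change was 0.22. *Derl1* had a log2 fold change of 0.47 (SE 0.09, limma adjusted p = 0.0185). *Derl2* had 0.34 (SE 0.13, limma adjusted p = 0.184), with 0.09 in replicates 1 and 2 alone and 0.59 in replicates 3 and 4 alone. *Edem2*, a mannosidase that marks glycoproteins for ERAD, had 1.04 (SE 0.16, limma adjusted p = 0.0048). The call of *Derl1* was lost without Ctrl replicate 1 or 2 or *Sel1l* CKO replicate 3 (limma adjusted p up to 0.0585). *Hspa5*, the ER chaperone BiP, and *Ddit3*, which encodes CHOP, both unfolded protein response genes, had log2 fold changes of 1.82 and 1.34 in the same libraries.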

How the data were processed

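DN3 thymocytes were sorted into TRIzol LS, and the authors made libraries with a stranded mRNA kit, sequenced paired ends of 150 bases, aligned reads to GRCm38 with STAR 2.5.2b and counted protein-coding genes with HTSeq 2.7 (versions as in the submitters' processing notes). The deposited values are RPKM, 1 column per library. The authors tested counts with DESeq2. Those counts were not used here, so the test was limma on log2 values. With gene spans of GENCODE M21, 75.3% of the genes with a value gave whole reads in every library (tolerance 0.02 reads), against 3.2% with exon length. For 3478 genes the length was solved from the values and 377 had no solution. The recovered reads made up 93.78% to 97.06% of the library totals. Depth did not limit the 9 genes, since each of them held at least 1639 reads in every library. The filter of 1 RPKM on the gene span also removed long genes with many reads.

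Genes whose mean reached 1 RPKM were tested in R 4.3.3 with limma 3.58.1 (log2(RPKM + 0.1), mean-variance trend, no term but genotype, Benjamini-Hochberg over 6512 genes, two-sided, threshold 0.05). The procedure was tested on simulated data. Single genes were also compared by two-sided exact permutation tests over 70 assignments. Intervals are 95% and not adjusted for multiple genes. There were 22 alternatives, of which 8 left out 1 library each. The others changed the pseudocount (1 and 0.01), the filter (none, 5, or 0.1 with 0.01 as pseudocount), the scaling (median of ratios, quantile), the trend, array weights, a replicate block, a term for replicates 3 and 4, the use of replicates 1 and 2 or 3 and 4 alone, and limma voom on recovered reads (mean of 10 reads or more). The genes named are the 9, every further listed gene past the threshold, 12 listed genes chosen by name (1 of which is not reported here), *Hspa5* and *Ddit3*, and the 5 genes most like *Vcp* and *Ube2g2*. Genes that overlap the 9 in the annotation, and *Rnf130*, *Rnf19a* and the cell markers named singly, were added after their values were seen. The 9 genes, the lists and the tests were chosen with earlier results of these data known. Of the further listed genes, *Spata5l1* was not analysed here. Promoters are RefSeq sequences of GRCm38.p6.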

Additional observations from a re-analysis of the deposited data

How the results depend on the processing

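The rise of *Vcp* held under all 22 alternatives, with log2 fold changes of 0.37 to 0.45, and the fold changes of *Ufd1* (0.07 to 0.16) and *Nploc4* (0.06 to 0.11) kept their sign and did not pass in any. *Ube2g2* stayed at 0.34 but lost its call with the replicate block, with replicates 1 and 2 alone and with 3 and 4 alone, and ranged from 0.30 to 0.38 when 1 library was left out. *Ube2j1* passed with array weights (0.32) and ranged from 0.24 to 0.35 without 1 library. *Faf2* changed sign under quantile normalization (0.02) and with replicates 1 and 2 alone (0.02), *Ubxn4* with array weights (0.14) and with replicates 3 and 4 alone (0.00), *Rnf5* with replicates 1 and 2 alone (-0.02), and *Aup1* under quantile normalization (-0.02) and with replicates 1 and 2 alone (-0.01). Without 1 library, *Faf2* ranged from -0.02 to 0.01, *Ubxn4* from -0.17 to 0.04, and *Aup1* from -0.06 to 0.07. None of these 4 genes passed the test under any alternative. The number of the 9 genes called higher was 1 at a mean RPKM of 5 or more, which left 4 of them in the test, with the replicate block, with replicates 1 and 2 alone and with 3 and 4 alone, and 1 to 2 without 1 library. With array weights it was 3.

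Over all tested genes, 278 were higher, against 182 at a mean RPKM of 5 or more (fewer genes tested) and 458 with array weights, and 204 to 254 without 1 library. Lower genes numbered 66, against 36 at a mean RPKM of 5 or more, 102 under quantile normalization, 182 with array weights, 182 with a term for replicates 3 and 4, 287 with replicates 1 and 2 alone and 160 with limma voom, and 31 to 75 without 1 library. Limma voom tested 11592 genes, and 78 of its 160 were among the 6512. Of the further listed genes, HRD1 branch included, 6 were higher, against 3 at a mean RPKM of 5 or more and 11 with array weights (5 to 7 without 1 library). In the same list 2 were lower, against 0 with no filter on low values and at a mean RPKM of 5 or more, in the limma test, 1 with median-of-ratios scaling, array weights, the replicate block or replicates 3 and 4 alone, and 4 with the term for replicates 3 and 4 or with limma voom (0 to 3 without 1 library). The cause of these differences was not tested.

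Same-numbered libraries of the 2 genotypes correlated in their deviations by 0.162, 0.0973, 0.445 and 0.00514, and the labels name no shared litter or day, so the numbers were not taken as pairs. With the replicate block 236 genes were higher and 81 lower. Only Ctrl replicate 3 correlated best with its own number.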
